A study of Homo sapiens with 6 samples.

Results

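The comparison described here sets the transcriptomes left by 2 different SPOP siRNAs against each other. It used 4 of the 6 RNA-Seq libraries of the series: SPOP siRNA 2 (si2) and SPOP siRNA 1 (si1) in DU145, a prostate cancer cell line, and the same pair in 769-P, a renal cell adenocarcinoma line. The other 2 libraries, 1 per line, came from cells with a control siRNA (NC) and entered no test. Genes were taken when their mean over the 4 libraries reached 5 FPKM (fragments mapped to a gene, scaled by transcript length and by the mapped fragments of the library), and symbols starting with MIR, SNORA, SNORD or SCARNA were left out, which kept 8007 of 24551 gene symbols. DSCC1, with a mean of 5.002 FPKM, was just inside this limit and CCDC103, with 4.996 FPKM, just outside. Each siRNA is represented by 1 library per line, so the 2 lines are the only replicates (n = 2 pairs), and nothing in the labels gives separate cultures. Differences are given as si2 minus si1 on log2(FPKM + 1), on which low values show less than their full fold change.

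SPOP is the substrate-binding subunit of a CUL3-RBX1 ubiquitin ligase, which marks proteins for the proteasome. An siRNA is a short duplex whose guide strand directs an Argonaute protein to a fully matching mRNA, which is cut. The same protein can also act as it does with a microRNA: bases 2 to 8 of the guide, called the seed, pair with short complementary words in the 3′ UTRs of other mRNAs, and such mRNAs are usually lowered to a modest degree. Such sites are known to work mostly from the 3′ UTR, and an A opposite the first base of the guide is known to favour them. Because siRNAs to the same gene have different seeds, 2 of them are commonly compared, so that what they share can be separated from what belongs to 1 sequence.

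SPOP mRNA was low with both siRNAs, and by about the same amount. The gene lies on the minus strand of chromosome 17 (chr17:47676246-47755525, GRCh37). The 3 DU145 libraries gave it 16.1 FPKM (control), 2.77 FPKM (si1) and 2.96 FPKM (si2). The 3 libraries of 769-P gave 11.6, 1.53 and 1.39 FPKM in the same order. The difference between the siRNAs was 0.07 in DU145 and -0.08 in 769-P on the log2 scale, with the sign changing between the lines. With a mean of 2.16 FPKM over the 4 libraries SPOP itself was under the limit and is not among the genes tested.

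FPKM values keep no read counts, so the depth behind a value is unknown. The most frequent ratio of low values put the depth of si2 relative to si1 at 0.983 in DU145 and at 1.32 in 769-P. The si2 library of 769-P stood apart: 237 of 366 olfactory receptor genes, which these cells are not known to use, had a value above 0 there (mean 0.227 FPKM), against 3 to 5 in the other 3 libraries compared, so counts are also given below with this mean subtracted from each library. The markers of the lines were as labelled: CDH1 and KRT19 had 15.9 to 17.7 and 384 to 462 FPKM in DU145 and 0 to 0.0977 and 0 to 3.56 FPKM in 769-P, and PAX8 had 1.40 to 1.47 FPKM in DU145 and 106 to 120 FPKM in 769-P. CA9 was listed at 0 in all 4 libraries and KRT5 had at most 0.144 FPKM. Among 10 markers of blood and stroma, PECAM1 and DCN were listed at 0 in all 4 libraries and the 10 together summed to 1.66 to 3.31 FPKM in DU145 and 23.4 to 40.3 FPKM in 769-P. ACTA2 made up 40.0 and 22.1 FPKM of the sums in 769-P.

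Many genes differed between the siRNAs in the same direction in both lines, while SPOP was within 0.08 on the log2 scale. At 1.5-fold, 187 genes (2.34% of those tested) were higher with si2 in both lines and 153 (1.91%) were lower, whereas 27 (0.337%) passed 1.5-fold in opposite directions. At 2-fold, 40 genes (0.500%) were higher with si2 in both lines, 17 (0.212%) were lower and 1 was opposite. Within a single line, 1284 genes passed 1.5-fold in DU145 and 920 in 769-P, so the 340 genes that passed in both lines in the same direction were 26.5% of the first and 36.96% of the second. By sign alone, 61.2% of all genes tested differed in the same direction in both lines. The split between higher and lower moved with the scaling: 174 genes were higher and 169 lower with the olfactory receptor mean subtracted, 228 and 124 with the median difference of each line subtracted, and 208 and 131 after quantile normalization.

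The test across genes depended on the fit. With limma on the paired libraries, 202 genes (2.52%) were higher and 137 (1.71%) lower with si2 at an adjusted p under 0.05, and 273 of these 339 also passed 1.5-fold in both lines. The model leaves 1 residual degree of freedom per gene, and the spread it uses is mostly borrowed from other genes (14.5 prior degrees of freedom), so a gene can pass when only 1 line differs. Without the cell line as block 0 genes passed (94 at an unadjusted p under 0.05), without a filter 83, after quantile normalization 152 and with the olfactory receptor mean subtracted 585, while the count at 1.5-fold was 339 to 487 under these settings. Across genes the differences in DU145 and 769-P, which share no library, correlated with a Pearson r of 0.45 and a Spearman rho of 0.43. Genes are not independent replicates, and no p is given. The median difference of all genes tested was 0.05 in DU145 and -0.10 in 769-P, and values below are not corrected for this shift unless said. The difference depended little on expression level, with a Spearman rho of 0.08 with mean FPKM across genes in DU145 and -0.03 in 769-P.

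**Figure D1:**
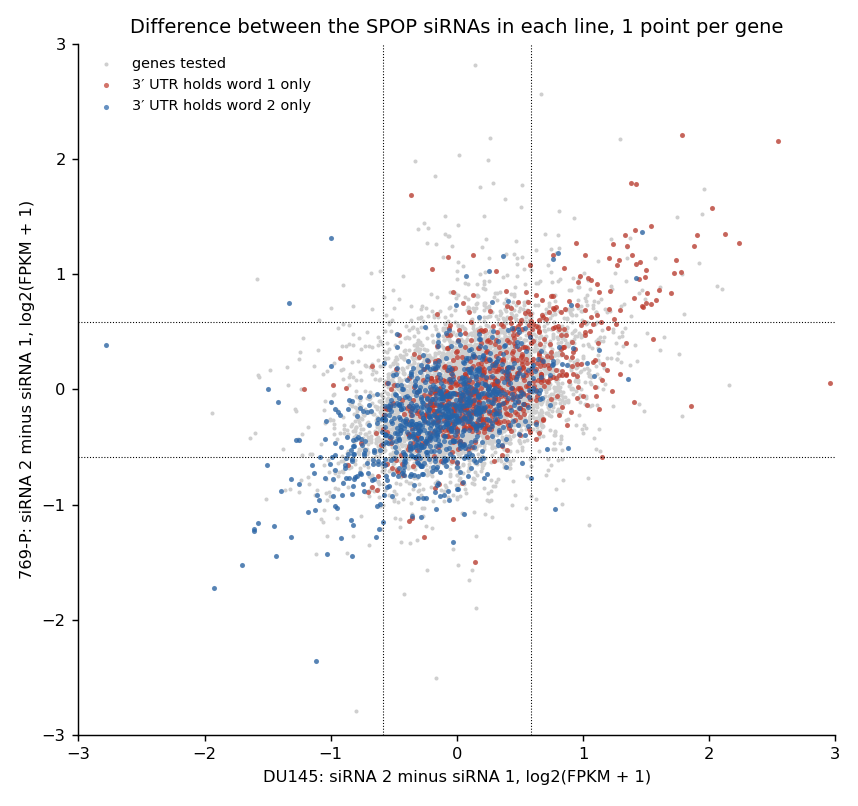
Difference between the SPOP siRNAs (si2 minus si1, log2(FPKM + 1)) in DU145 on the x axis and 769-P on the y axis, 1 point per gene, with dotted lines at 1.5-fold and 3 genes outside the axes. Red points mark 3′ UTRs with a copy of GTGAAAT only (word 1) and blue points those with a copy of ATGTGTG only (word 2). Among the genes with a 3′ UTR model past 1.5-fold in both lines, 54.4% of those in the upper right corner hold word 1 and 53.8% of those in the lower left corner hold word 2. These shares also count genes with both words (16 and 6), which are not red or blue. Of all genes with a model, 15.7% hold word 1 and 17.9% hold word 2.

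A pair of short sequences marked the genes that differed. Every one of 16310 words of 7 bases that occurred in the 3′ UTRs of at least 20 genes was ranked in each line separately by a score: the mean difference of the genes holding it, after removal of a smooth dependence on 3′ UTR length, times the square root of their number and over the SD of all genes. The 3′ UTRs were those of the canonical protein-coding transcripts of GENCODE on GRCh37, found for 7095 of the 8007 genes, and words were searched on the mRNA strand. In DU145 the word ranked first for genes higher with si2, that is lower with si1, was GTGAAAT, and in 769-P the same word ranked first. The word ranked first for genes lower with si2 was ATGTGTG in both lines. GTGAAAT was in the 3′ UTRs of 1114 genes (15.7% of those with a model) and ATGTGTG in those of 1271 (17.9%), 350 genes held both, and in 4 of these the copies overlapped. The words at ranks 2, 3 and 4 were the same in both lines, and each shares 6 bases with GTGAAAT: first TGAAATA, which begins 1 base later, then TGTGAAA and after it AGTGAAA, which begin 1 base earlier. On the low side ATGTGTG stood less apart. In DU145 the words at ranks 2 to 4 were GC-rich and unrelated to it, namely CCCCTCC, then CAGCCCC and then GCTGCCC, with scores of -7.43, -7.35 and -7.35 against -7.77, and in 769-P these were at ranks 13, 27 and 167. In 769-P ranks 2 to 4 went to TGTGTGA, followed by TGTGTGC and then by GTGTGTG, each of which shares 6 bases with ATGTGTG. The reverse complements did not rank high: ATTTCAC was at rank 1814 in DU145 and 8983 in 769-P from the top, and CACACAT at rank 4648 and 11836 from the bottom.

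**Figure D2:**
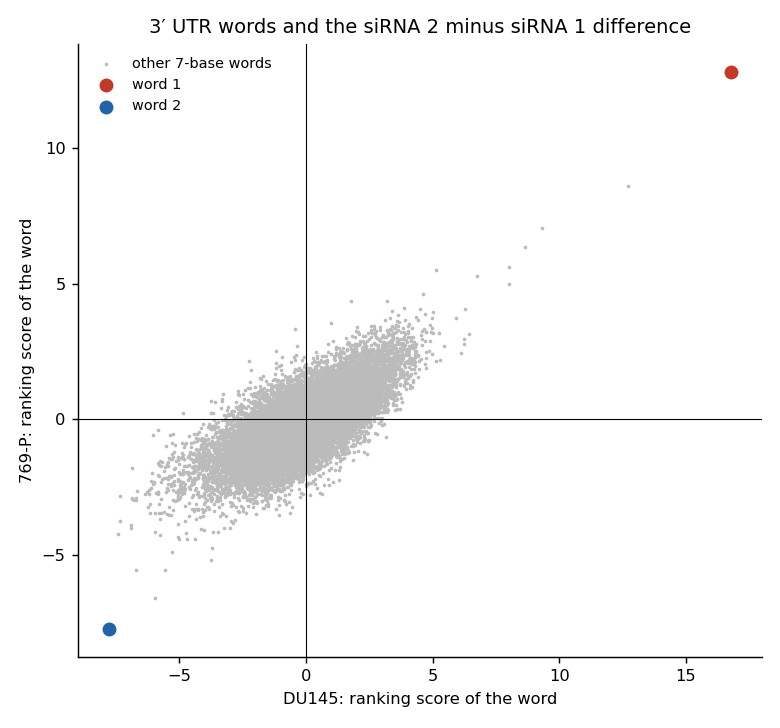
Ranking score of each 7-base 3′ UTR word in DU145 (x axis) and 769-P (y axis), 1 point per word. The score is the mean length-adjusted difference of the genes that hold the word, times the square root of their number, over the SD of all genes, with no unit. Word 1 (GTGAAAT, 16.8 and 12.8) is the highest point in both lines and word 2 (ATGTGTG, -7.77 and -7.74) the lowest in both.

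The sequences below show the words, in capitals, in the transcripts the results turn on. They are windows of 19 bases of the mRNA, 5′ to 3′, with 11 bases before the word and 1 after. The first 6 are from genes lower with si1 and hold GTGAAAT in the 3′ UTR.
TMEM14C, chr6:10731313-10731331, plus strand: aattatgttaaGTGAAATa
UQCRFS1, chr19:29698314-29698332, minus strand: caaacattaatGTGAAATa
TMEM245, chr9:111782035-111782053, minus strand: accacgttgaaGTGAAATa
AKR1C1, chr10:5021812-5021830, plus strand: tttttcaagatGTGAAATa
MRPL50, chr9:104152656-104152674, minus strand: tactttaccatGTGAAATa
WBP2, chr17:73841843-73841861, minus strand: aatatattaatGTGAAATa
All 6 windows shown have an A after the word, which other copies often lack: of 20 GTGAAAT windows read from the genes highest with si2, 12 have one.

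The next 5 are from genes lower with si2 and hold ATGTGTG in the 3′ UTR. Of 21 such windows read from the genes lowest with si2, 5 have an A after the word.
WNT9A, chr1:228107982-228108000, minus strand: aatcgagatagATGTGTGt
VAT1, chr17:41166709-41166727, minus strand: atgaggcctaaATGTGTGa
STARD7, chr2:96850627-96850645, minus strand: atttttatcaaATGTGTGa
SGK1, chr6:134491367-134491385, minus strand: taaaggattttATGTGTGt
CREBL2, chr12:12796616-12796634, plus strand: ctagtctagtcATGTGTGa

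SPOP, the intended target, holds both words in its own coding sequence. The canonical SPOP mRNA of 2850 bases has GTGAAAT once, at position 319 in the coding sequence. The word itself lies in 1 exon (chr17:47699414-47699420), and the window begins with 2 bases of the exon before it (chr17:47700095-47700096) and goes on over chr17:47699413-47699429. ATGTGTG occurs once in the coding sequence, at position 1093 in exon 9 of 10, and once more in the 5′ UTR, at position 30.
SPOP, coding, position 319: agatcaaggtaGTGAAATt
SPOP, coding, position 1093, chr17:47679338-47679356: gcttaaaggtcATGTGTGa
SPOP, 5′ UTR, position 30, chr17:47755423-47755441: tgtcggtgtgtATGTGTGt
Among 2099 coding sequences within 10% of the 1125 bases of SPOP, 6.19% held GTGAAAT, 6.67% held ATGTGTG and 0.333% (7) held both. These shares are descriptions and no test. They leave out the UTRs, where an siRNA can also be aimed, and the words were found with the same differences. Compared with the coding window of SPOP, the best window in the 3′ UTR of each holder had a median of 3 of the other 12 bases in common for either word, and at most 9 for GTGAAAT and 8 for ATGTGTG. None of 2370 mature human miRNAs in RefSeq had a seed (bases 2 to 8) complementary to either word. Only matches over all of these bases were searched, and whether miRNAs act on the words was not tested. The guide sequences of the siRNAs are not used here, and whether either seed pairs with these words was not tested.

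Among the genes that differed in both lines, each word was more frequent in 1 direction. Of the 187 genes higher with si2, 160 had a 3′ UTR model, and 87 of these (54.4%) held GTGAAAT while 21 (13.1%) held ATGTGTG. Of the 153 genes lower with si2, 130 had a model, of which 70 (53.8%) held ATGTGTG and 11 (8.46%) held GTGAAAT. At 2-fold the shares were larger, with GTGAAAT in 28 of 36 genes higher with si2 and ATGTGTG in 13 of 16 genes lower with si2. Of the 20 genes with a model that passed 1.5-fold in opposite directions, 1 held GTGAAAT and 4 held ATGTGTG. Over all 7095 genes with a model, 15.7% held GTGAAAT and 17.9% held ATGTGTG. Neither word was held by 68 of the 160 and 55 of the 130 genes. These shares are descriptions, since the words were found with the same differences.

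Genes that passed 1.5-fold in 1 line and stayed under 1.2-fold in the other held the words less clearly. GTGAAAT was in 88 of 335 genes (26.3%) higher with si2 in DU145 alone, and in 14 of 73 (19.2%) higher in 769-P alone. ATGTGTG was in 27 of 101 genes (26.7%) lower with si2 in DU145 alone and in 45 of 154 (29.2%) lower in 769-P alone. All 4 shares lie between those of the genes shared by both lines and those of all genes with a model, and no test of these differences was made.

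The median difference changed with the number of copies. Genes without GTGAAAT in the 3′ UTR had a median difference of 0.03 in DU145 and -0.12 in 769-P, genes with 1 copy 0.17 and -0.04, and genes with 2 copies 0.29 and 0.06. The 38 genes with 3 or more copies had 0.31 and 0.06. For ATGTGTG the medians went from 0.08 and -0.09 without a copy to -0.04 and -0.16 with 1, -0.08 and -0.22 with 2 and -0.23 and -0.31 with 3 or more. Genes with more copies have longer 3′ UTRs, with a median of 956 bases without GTGAAAT, 2356 with 1 copy and 3630 with 2. For ATGTGTG the medians were 919 bases without a copy, 2333 with 1, 3719 with 2 and 4927.5 with 3 or more. Across genes the difference fell with 3′ UTR length (Spearman rho -0.10 in DU145 and -0.09 in 769-P), the same direction as with copies of ATGTGTG. The part of length in these medians was not tested.

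**Figure D3:**
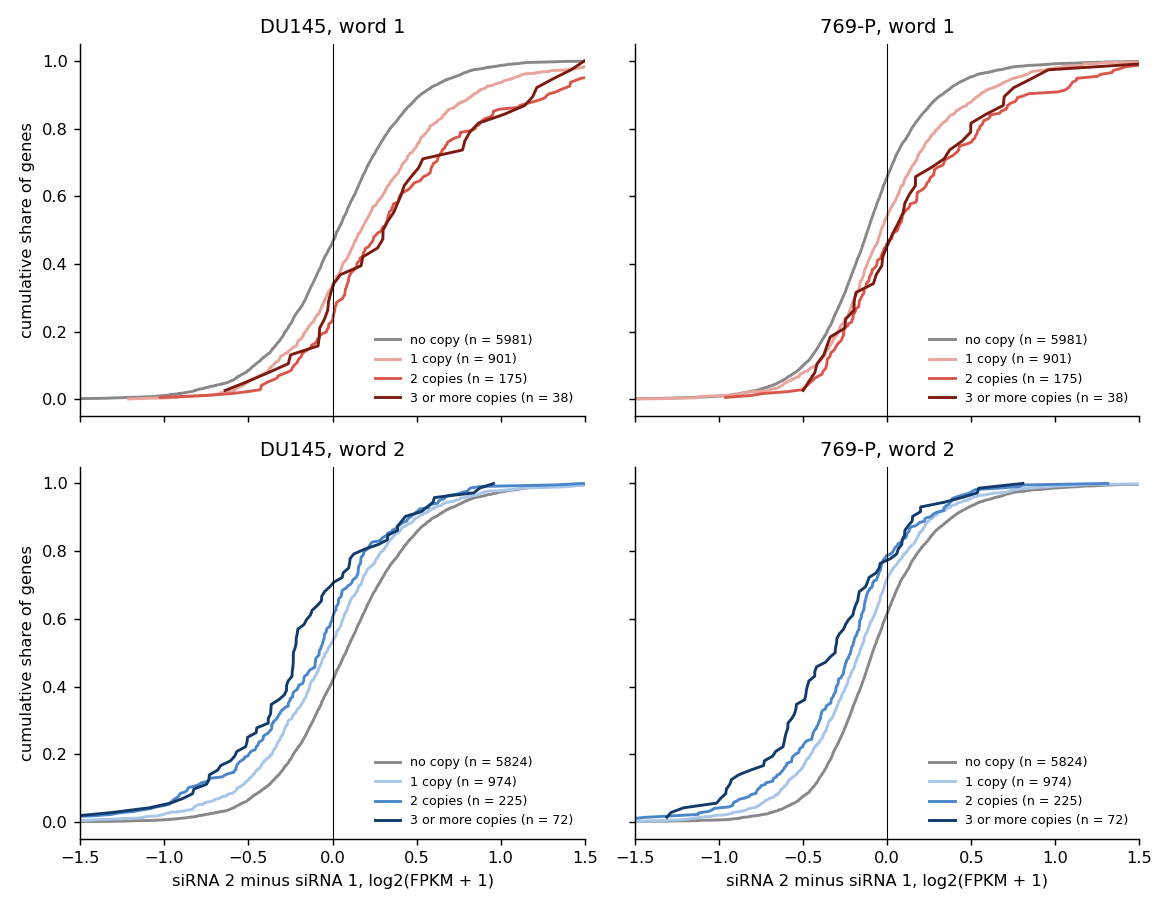
Cumulative share of genes (y axis) by difference between the siRNAs (x axis, si2 minus si1, log2(FPKM + 1)) in DU145 (left) and 769-P (right), by copies of word 1 (GTGAAAT, top) and word 2 (ATGTGTG, bottom) in the 3′ UTR. With 1 or more copies the medians lie to the right of those without a copy for word 1 and to the left for word 2, in both lines.

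Holders also differed from other genes within broad classes of 3′ UTR length. The genes were cut by 3′ UTR length into 3 classes of about equal number. In the class with the shortest 3′ UTRs the 99 genes with GTGAAAT had medians of 0.48 in DU145 and 0.12 in 769-P, against 0.10 and -0.08 in the 2268 genes without it. In the class with the longest the medians were 0.12 and -0.06 with the word and -0.04 and -0.16 without it. For ATGTGTG the shortest class gave -0.08 and -0.20 with the word against 0.12 and -0.07 without, and the longest class -0.05 and -0.18 against 0.04 and -0.10. In both of these classes the direction was the same in both lines for each word, and the middle class is not given. Within a class holders still had longer 3′ UTRs. In the shortest class the medians were 440 against 310 bases for GTGAAAT and 428.5 against 310 for ATGTGTG. In the longest they were 3603.5 against 2861 and 3605.5 against 2828, so the classes do not remove length. Across genes the Spearman rho of the difference was -0.10 in DU145 and -0.09 in 769-P with 3′ UTR length, -0.14 and -0.12 with transcript length and -0.13 and -0.04 with the GC content of the 3′ UTR. The median GC content was 38.8% in 3′ UTRs with GTGAAAT and 45.9% without it, and 42.0% with ATGTGTG and 45.1% without it. The part of GC content in the differences was not tested.

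The base after the word and its place in the mRNA went with the size as well. The 371 genes with GTGAAAT followed by A had medians of 0.32 in DU145 and 0.08 in 769-P, and the 743 genes whose copies all had another base after them 0.12 and -0.06. Of the 160 genes higher with si2 in both lines, 50 (31.2%) held this longer form, against 5.23% of all genes with a model. For ATGTGTG followed by A (308 genes) the medians were -0.13 and -0.23, against -0.04 and -0.17 for the other holders. A gene with more copies is more likely to hold one followed by A, and the number of copies was not separated from the base. Genes with GTGAAAT in the coding sequence and none in the 3′ UTR had medians of 0.10 in DU145 and -0.11 in 769-P, against 0.02 and -0.12 for genes with no copy in either place. For ATGTGTG the coding copies alone gave 0.01 and -0.14, against 0.09 and -0.08 with no copy in either place, so in DU145 and 769-P these medians lay on the same side as those of 3′ UTR holders.

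The siRNA libraries can also be set beside the controls. Holders of GTGAAAT had a median si1 minus NC difference of -0.07 in DU145 and -0.18 in 769-P, where other genes had 0.12 and 0.06. Their median si2 minus NC difference was 0.11 in DU145 and -0.20 in 769-P, where other genes had 0.15 and -0.05. Holders of ATGTGTG had a median si2 minus NC difference of 0.06 and -0.21, where other genes had 0.16 and -0.04, and a si1 minus NC difference of 0.12 and -0.01, where other genes had 0.09 and 0.03. The 2 differences of a line share 1 control library, so they are given side by side without a test. In 769-P, holders of GTGAAAT were below other genes with both siRNAs.

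The 15 genes highest with si2 were the clearest case. Their si2 values were 2.56 to 9.66 times those of si1 in DU145 and 2.55 to 4.88 times in 769-P. All 15 passed the limma test (adjusted p from 1.35e-05 to 0.00135). They were chosen by the size of the same difference, so its direction and these p values are no independent support. Of the 15, 12 held GTGAAAT in the 3′ UTR, where 15.7% of all genes with a model did. The word was found with the same differences, so this share is no independent support either. The control was nearer to si2 than to si1 for 12 of them in DU145 and for 14 in 769-P. HMGCS1, ASPHD1 and NGRN did not hold the word.

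TMEM14C and TMEM14B headed the list. TMEM14C, a mitochondrial inner membrane protein needed for heme synthesis in erythroid cells, had 125, 17.1 and 105 FPKM in DU145 and 130, 26.8 and 122.9 FPKM in 769-P with NC, si1 and si2. The si1 library was the low one in both lines. The difference was 2.35 (standard error 0.19, adjusted p = 1.35e-05, limma, n = 2 lines). Its neighbour and paralog TMEM14B had 29.0 FPKM with si1 and 102 FPKM with si2 in DU145, and 19.4 and 93.5 FPKM in 769-P, a difference of 1.79 and 2.21 in the lines (standard error of their mean 0.19, adjusted p = 6.94e-05, limma). The window of GTGAAAT in TMEM14B is the same 19 bases as in TMEM14C. Fragments shared by the paralogs could have been assigned to either, so the values of each are less certain than those of single-copy genes.

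Several of the others work in mitochondria. UQCRFS1, the Rieske iron-sulfur subunit of respiratory complex III, had 28.6 FPKM with si1 and 113 FPKM with si2 in DU145, and 35.5 and 104 FPKM in 769-P, while the controls had 106 and 116 FPKM. Its difference was 1.73 (standard error 0.19, adjusted p = 0.000289, limma), and its 3′ UTR held 2 copies of GTGAAAT and 1 of ATGTGTG. MRPL50, a protein of the mitochondrial ribosome, had 8.45 and 23.6 FPKM in DU145 and 5.06 and 19.97 FPKM in 769-P with si1 and si2. NGRN, which takes part in mitochondrial ribosome assembly, had 57.5 and 151 FPKM in DU145 and 21.7 and 55.4 FPKM in 769-P. In each of these genes both si1 values were below the si2 value of the same line, as their choice requires. As a class, 63 tested genes of oxidative phosphorylation did not show this: UQCRFS1 and ATP5G1, a subunit of the ATP synthase ring, were the only members past 1.5-fold in both lines, and the medians were 0.18 and -0.13. ATP5G1 lost this call with a pseudocount of 5, with median centring and after quantile normalization (0.57, 0.53 and 0.48 in DU145).

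AKR1C1, an aldo-keto reductase that inactivates progesterone, had 0.501 and 4.84 FPKM in DU145 and 8.82 and 31.8 FPKM in 769-P with si1 and si2 (difference 1.85, standard error 0.22, adjusted p = 0.000371, limma). Its level in DU145 was low in both libraries, and the AKR1C genes are close paralogs whose fragments can be misassigned. HSD17B12, an enzyme of fatty acid elongation, had 4.66 and 14.1 FPKM in DU145 and 13.6 and 37.1 FPKM in 769-P. LYPLA1, which removes palmitate from proteins, had 12.0 and 55.6 FPKM in DU145 and 25.6 and 66.8 FPKM in 769-P. In these 3 genes si1 was also below the control in both lines. GOLM1, a Golgi membrane protein, had 37.4 and 143 FPKM and 17.1 and 44.98 FPKM, with 2 copies of the word. C1D, a cofactor of the nuclear exosome, held 3 copies and had 2.94 and 9.55 FPKM in DU145 and 1.71 and 8.33 FPKM in 769-P.

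The remaining 4 were TMEM245, TRUB1, WBP2 and ASPHD1. TMEM245 had 8.24 and 36.5 FPKM in DU145 and 4.56 and 15.6 FPKM in 769-P. TRUB1, a pseudouridine synthase of tRNAs, had 2.38 and 8.80 FPKM and 5.86 and 17.3 FPKM. WBP2, a coactivator that binds WW domains, had 34.6 and 88.6 FPKM and 39.9 and 102 FPKM, with controls of 87.6 and 92.8 FPKM close to si2. ASPHD1, with neither word in its 3′ UTR of 159 bases, differed the other way against the controls: si1 had 3.02 FPKM where the DU145 control had 3.01 FPKM, and si2 had 12.5 FPKM. In 769-P it had 9.67 FPKM with si1, 12.8 FPKM in the control and 29.2 FPKM with si2.

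**Figure D4:**
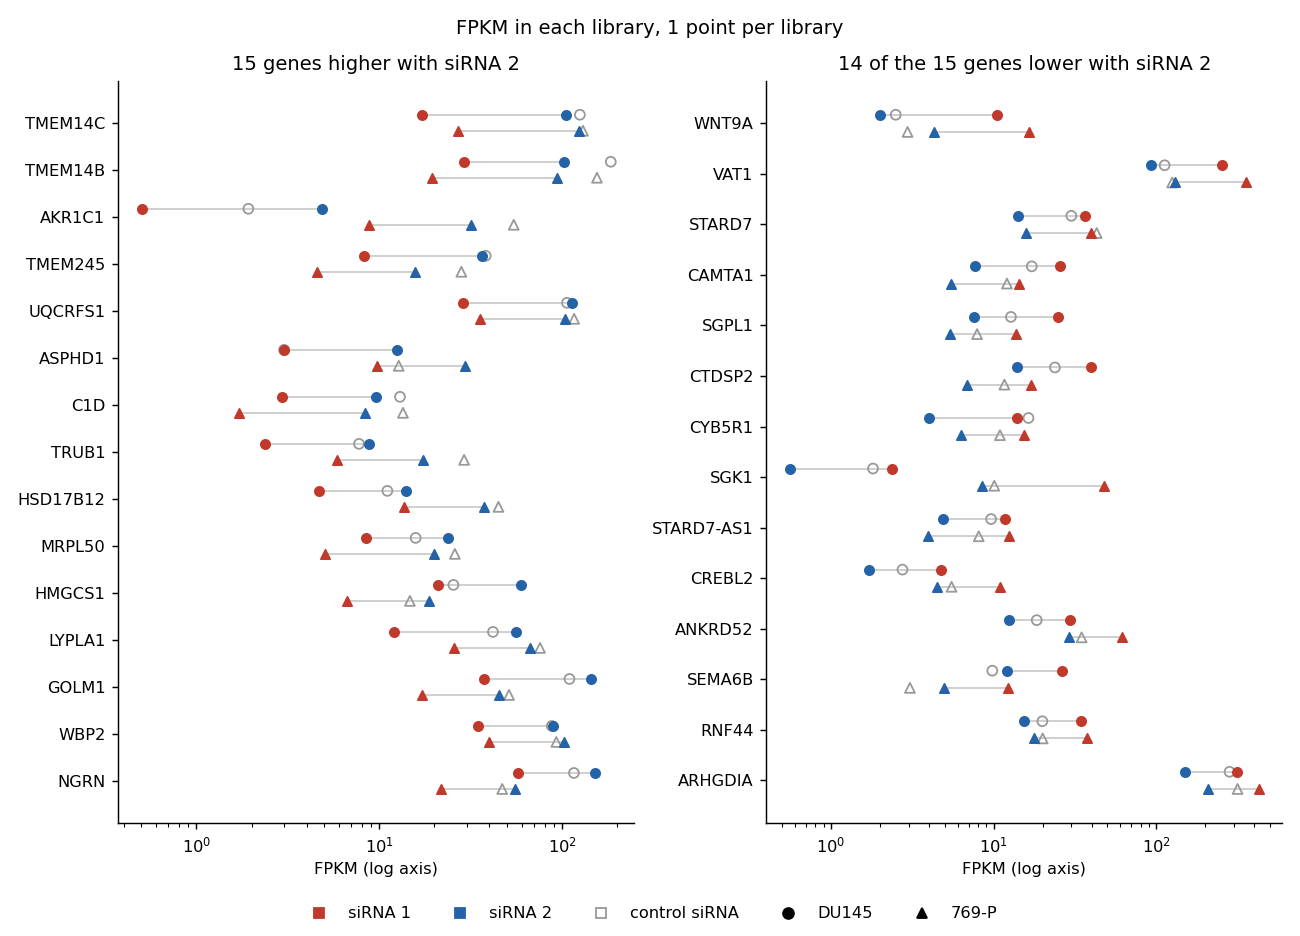
FPKM on a log axis in each library for the 15 genes higher (left) and 14 of the 15 lower (right) with si2 in both lines, with DU145 as circles, 769-P as triangles, si1 in red, si2 in blue and the control siRNA open. On the left the open symbols mostly sit near or beyond the si2 value (for 12 and 14 of 15 genes they are nearer to si2), and on the right they mostly lie between the siRNAs.

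The 15 genes lowest with si2 were 2.09 to 5.20 times higher with si1 in DU145 and 2.07 to 5.61 times in 769-P. All 15 passed the limma test (adjusted p from 0.000371 to 0.0145). They, too, were chosen by the size of the same difference, so this is no independent support. Of the 14 with a 3′ UTR model, 12 held ATGTGTG, where 17.9% of all genes with a model did, and ARHGDIA and SEMA6B did not. That word, too, was found with the same differences, so its share is no independent support. The control lay between the siRNAs for 13 of the 15 in DU145 and for 10 in 769-P, and there the siRNAs stood on either side of it.

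WNT9A, a secreted Wnt ligand, differed most. It had 2.50, 10.4 and 2.01 FPKM in DU145 and 2.95, 16.6 and 4.31 FPKM in 769-P with NC, si1 and si2, a difference of -1.83 (standard error 0.22, adjusted p = 0.000371, limma). The si2 values were close to the controls and si1 was the library that stood away in both lines, although the 3′ UTR held 2 copies of ATGTGTG. VAT1, an oxidoreductase-like membrane protein of vesicles and mitochondria, had 251 and 92.6 FPKM in DU145 and 356 and 130 FPKM in 769-P with si1 and si2, and its controls (112 and 125 FPKM) were near si2.

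The next group held lipid and signalling genes. STARD7, which carries phosphatidylcholine to mitochondria, had 36.4 and 14.1 FPKM in DU145 and 39.7 and 15.7 FPKM in 769-P with si1 and si2 (difference -1.30, standard error 0.18, adjusted p = 0.00116, limma), against controls of 29.97 and 42.9 FPKM. Its 3′ UTR held 3 copies of ATGTGTG. STARD7-AS1, an antisense RNA to it, had 11.7 and 4.86 FPKM and 12.4 and 3.97 FPKM, and since no source states that strand was kept, its fragments and those of STARD7 cannot be told apart where they overlap. SGPL1, which degrades sphingosine-1-phosphate, also held 3 copies and had 24.9 and 7.54 FPKM in DU145 and 13.7 and 5.35 FPKM in 769-P. In all 3 genes si2 was the lower library in each line, as their choice requires.

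SGK1, a kinase induced by serum and glucocorticoids, had 2.38 and 0.558 FPKM in DU145 and 47.5 and 8.47 FPKM in 769-P with si1 and si2 (difference -1.74, standard error 0.27, adjusted p = 0.00204, limma). In 769-P its control, 10.1 FPKM, was close to si2. CAMTA1, a calcium-responsive transcription factor, had 25.4 and 7.67 FPKM in DU145 and 14.2 and 5.50 FPKM in 769-P. CTDSP2, a phosphatase of the RNA polymerase II tail, had 39.6 and 13.9 FPKM and 16.9 and 6.86 FPKM. In both of these genes the controls, 17.1 and 12.1 FPKM and 23.8 and 11.6 FPKM, lay between the siRNAs. CYB5R1, CREBL2, ANKRD52, RNF44, SEMA6B and ARHGDIA, the last with 312 and 150 FPKM in DU145 and 427 and 206 FPKM in 769-P, differed by -1.06 to -1.57 in DU145 and by -1.05 to -1.16 in 769-P. The si2 value was below the si1 value of its line in every one, as their choice requires.

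Over all genes that passed 1.5-fold in both lines, the high and low sides differed in which siRNA stood away from the control. Of the 187 genes higher with si2, 88 were more than 1.5-fold below the control with si1 in both lines, and 18 were more than 1.5-fold above it with si2 in both lines. Of the 153 genes lower with si2, 27 were below the control with si2 in both lines and 54 were above it with si1 in both lines. Line by line (DU145, then 769-P), si1 was this far below the control in 102 and 128 of the 187 genes, against 517 and 707 of all 8007. With si2 above it, these were 58 and 27, against 899 and 479. Among the 153 genes, si2 was below it in 44 and 42, against 190 and 580 of all. With si1 above it, these were 75 and 71, against 993 and 905. Passing in both lines was not counted over all genes. The control enters both sides of these counts and has 1 library per line.

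Cholesterol and fatty acid synthesis was the list with the most members past 1.5-fold. Cells make cholesterol from acetyl-CoA through mevalonate and squalene, and the enzymes are switched on together by the SREBP transcription factors when sterols are scarce. Of 30 tested members, 11 were more than 1.5-fold higher with si2 in both lines and 0 lower, and 14 passed the limma test, all higher, where 2.34% and 2.52% of all genes did. The list had medians of 0.78 in DU145 and 0.48 in 769-P, against 0.05 and -0.10 for all genes tested. Of the 30, 27 were above 0 in both lines, where 2140 of all 8007 genes were. Among the 25 members with neither word in the 3′ UTR, 8 passed 1.5-fold and the medians were 0.77 and 0.45.

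HMGCS1, which makes HMG-CoA at the entry to the mevalonate pathway, had 25.4, 20.9 and 59.8 FPKM in DU145 and 14.7, 6.61 and 18.7 FPKM in 769-P with NC, si1 and si2 (difference 1.42, standard error 0.18, adjusted p = 0.000664, limma). The si2 library was the highest of its line in both, and its 3′ UTR held 1 copy of ATGTGTG. IDI1, the isopentenyl diphosphate isomerase, had 31.0 and 64.9 FPKM in DU145 and 19.0 and 37.6 FPKM in 769-P with si1 and si2, where the controls, 56.8 and 49.6 FPKM, were above si1 in both lines. FADS2, a fatty acid desaturase, had 152 and 355 FPKM and 4.39 and 12.3 FPKM (difference 1.26, standard error 0.18, adjusted p = 0.00118, limma). ACLY, which supplies cytosolic acetyl-CoA, had 75.8 and 212 FPKM and 144 and 239 FPKM. In these 4 genes the siRNAs were apart in the same direction in both lines.

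Another 6 were MVK, MVD, FDFT1, LSS, MSMO1 and DHCR7, enzymes from mevalonate to cholesterol, with differences of 0.63 to 1.10 in DU145 and 0.59 to 0.94 in 769-P. DHCR7 lost the call with median centring and after quantile normalization (0.58 and 0.51 in DU145). FDFT1, with 0.59 in 769-P, was the gene nearest to the 1.5-fold limit on its inner side, and MALAT1, with -0.59 in DU145, was the next. ERRFI1, with -0.58 in DU145 and -1.15 in 769-P, and MTRNR2L8, with -0.74 and -0.58, were just outside it. The transcription factor genes SREBF1 and SREBF2 differed by 0.18 and 0.03 in DU145 and -0.12 and 0.20 in 769-P.

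**Figure D5:**
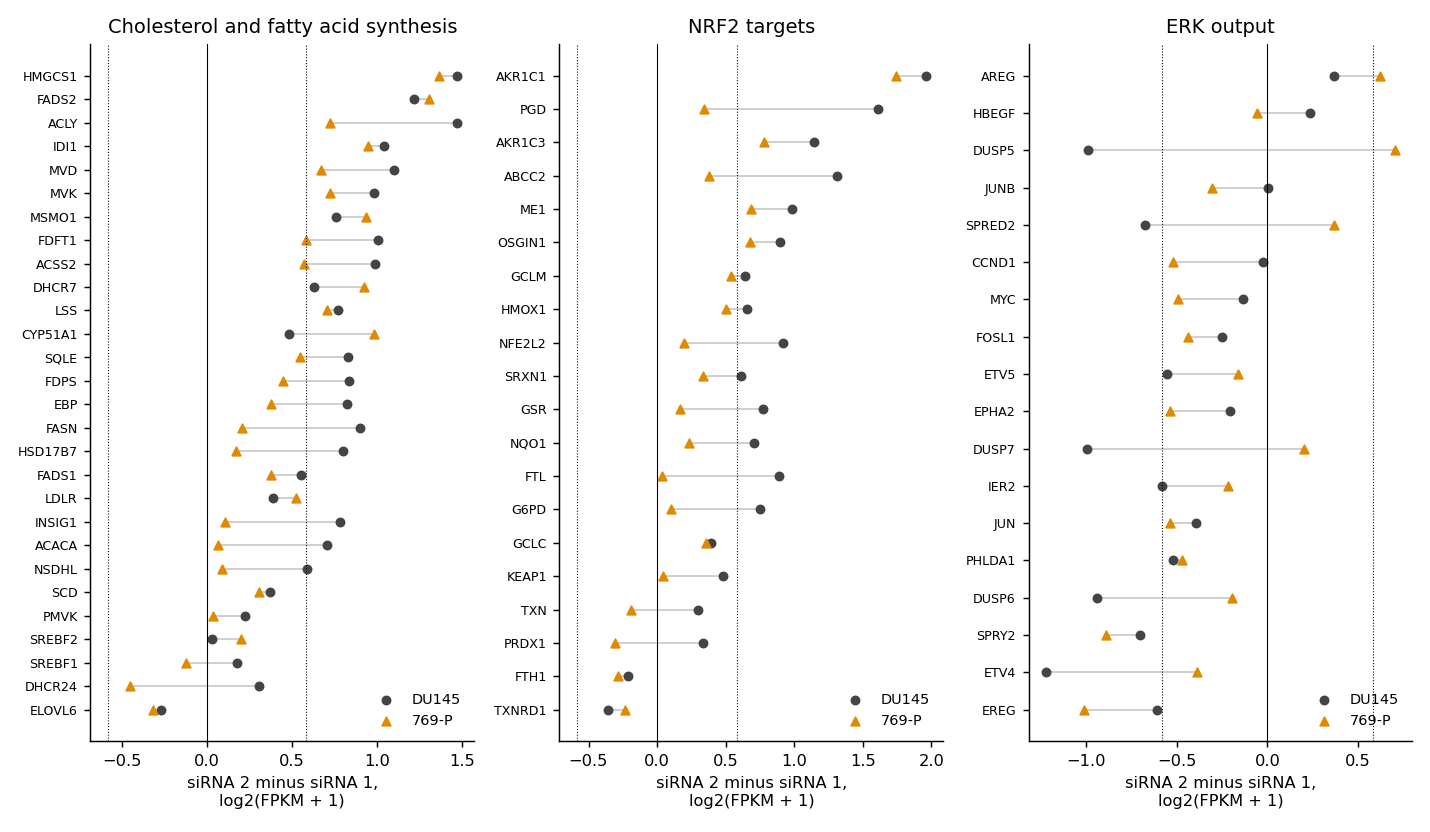
Difference between the siRNAs (x axis, si2 minus si1, log2(FPKM + 1)) in DU145 (circles) and 769-P (triangles) for the tested genes of 3 lists, with dotted lines at 1.5-fold. In cholesterol and fatty acid synthesis, where 28 of the 30 genes are drawn, 27 of all 30 are above 0 in both lines, in the NRF2 targets 16 of 20 are, and in the ERK output list 12 of 18 are below 0 in both. Of all 8007 genes tested, 2140 are above 0 and 2759 below 0 in both lines.

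Targets of NRF2, the transcription factor of the antioxidant response, were above 0 in both lines for 16 of 20 tested members, where 2140 of all 8007 genes were. Of 20 tested members, 4 passed 1.5-fold in both lines (AKR1C1, AKR1C3, ME1 and OSGIN1) and 6 passed the limma test, all higher, where 2.34% and 2.52% of all genes did. The medians were 0.73 in DU145 and 0.29 in 769-P, against 0.05 and -0.10 for all genes. AKR1C3 had 12.1 and 27.9 FPKM in DU145 and 141 and 242 FPKM in 769-P with si1 and si2, and ME1, the cytosolic malic enzyme, had 15.7 and 31.9 FPKM and 8.54 and 14.3 FPKM. NQO1, the marker of this response most often measured, had 229 and 374 FPKM in DU145 and 89.4 and 105 FPKM in 769-P and did not pass. AKR1C1 is 1 of the 5 members of this list with GTGAAAT in the 3′ UTR, and among the 15 with neither word the medians were 0.75 and 0.23.

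Genes induced by the ERK kinases were lower with si2 on the median. Of 18 tested members, 2 were past 1.5-fold lower in both lines, and both passed the limma test, against 1.91% and 1.71% of all genes. The medians were -0.54 in DU145 and -0.35 in 769-P, against 0.05 and -0.10 for all genes. Of the 18, 12 were below 0 in both lines, where 2759 of all 8007 genes were. SPRY2, a feedback inhibitor of receptor signalling to ERK, had 25.7 and 15.4 FPKM in DU145 and 11.5 and 5.73 FPKM in 769-P with si1 and si2 (difference -0.80, standard error 0.19, adjusted p = 0.0272, limma). Its 3′ UTR held 1 copy of GTGAAAT. EREG, the EGF receptor ligand epiregulin, had 31.6 and 20.4 FPKM and 34.5 and 16.6 FPKM. DUSP5, an ERK phosphatase, went in opposite directions, with 114 and 56.9 FPKM in DU145 and 4.31 and 7.66 FPKM in 769-P.

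SPOP acts on the proteins of its substrates, so their mRNA is a separate measure. Among 7 tested genes of the ligase none passed 1.5-fold in both lines. Among 15 tested substrates 2 were lower with si2 in both lines and 0 higher, with medians of -0.29 in both. Over all genes 1.91% were lower and 2.34% higher, with medians of 0.05 and -0.10. CCNE1, the gene of cyclin E1, had 8.62, 13.1 and 5.77 FPKM in DU145 and 7.76, 15.0 and 9.11 FPKM in 769-P with NC, si1 and si2 (difference -0.86, standard error 0.20, adjusted p = 0.0253, limma). Its si1 value was above the control in both lines, and si2 was below it in DU145 and above it in 769-P. BRD3, a bromodomain protein, had 16.1 and 8.35 FPKM and 14.0 and 8.92 FPKM with si1 and si2 (adjusted p = 0.0471, limma). Neither gene held either word in its 3′ UTR, and both fell under 1.5-fold in 769-P when the median difference of each line was subtracted (-0.56 for CCNE1 and -0.49 for BRD3).

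Other lists had 1 to 3 members that passed, in lists of 11 to 63 tested genes, where 2.34% of all genes were higher and 1.91% lower. E2F1, a transcription factor of the G1/S switch with 4 copies of ATGTGTG in its 3′ UTR, had 45.1 and 20.6 FPKM in DU145 and 35.5 and 17.7 FPKM in 769-P (difference -1.03, standard error 0.18, adjusted p = 0.0047, limma). It and CCNE1 were the 2 of 36 DNA replication genes past 1.5-fold, and 0 of 35 mitosis genes passed. ASNS, asparagine synthetase, and SLC7A5, the large neutral amino acid transporter, were the 2 of 33 genes of the ATF4 response, both lower with si2, and IGFBP6, which binds IGF-II, was the 1 of 14 of IGF signalling, with 77.7 and 43.5 FPKM and 54.2 and 21.9 FPKM. In the unfolded protein response XBP1 and SEL1L were higher and HERPUD1 lower with si2. HERPUD1, with 2 copies of ATGTGTG, had 34.7 and 19.3 FPKM and 27.9 and 15.8 FPKM, and SEL1L, with 2 copies of GTGAAAT, had 4.31 and 9.55 FPKM and 2.35 and 4.08 FPKM but did not pass the limma test (adjusted p = 0.074).

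Among genes higher with si2, ICAM1, an adhesion molecule induced by NF-kB, had 47.0 and 99.0 FPKM in DU145 and 24.8 and 46.3 FPKM in 769-P, and NFKB2 had 39.2 and 64.6 FPKM and 39.2 and 60.3 FPKM (adjusted p = 0.0545, limma). They were the 2 of 15 tested NF-kB targets and cytokines past 1.5-fold, beside 2.34% of all genes. TRIM21, an antibody receptor of the cytosol, was the 1 of 12 interferon-stimulated effectors (adjusted p = 0.0934, limma), and 0 of 12 tested genes of innate RNA sensing and 0 of 7 of the RNA interference machinery passed. ITGB5, an integrin of the vitronectin receptor, ANKRD1, a target of YAP, ATP6V1B2, a subunit of the vacuolar proton pump, and the histone genes HIST1H2BK and HIST1H4H were the others, each past 1.5-fold higher with si2. HIST1H4H was listed at 0 with si1 in 769-P.

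In all, 27 of 629 tested genes of the 28 lists were higher and 9 lower with si2 at 1.5-fold in both lines, beside 2.34% and 1.91% of all genes, and 33 and 11 passed the limma test, beside 2.52% and 1.71%. The 13 lists with no member past 1.5-fold in both lines (282 tested genes) had medians from -0.30 to 0.44 in DU145 and from -0.26 to 0.03 in 769-P. The ribosomal protein genes (69 tested, medians 0.34 and -0.12) and the mitosis genes (0.44 and -0.14) differed in sign between the lines by their medians, and with the median difference of all genes subtracted they had 0.28 and -0.02, and 0.38 and -0.04.

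The difference between the siRNAs was of opposite sign in the lines for a small number of genes. CD24, a surface glycoprotein, had 50.2 and 105 FPKM in DU145 and 29.8 and 12.6 FPKM in 769-P with si1 and si2. PLEKHG4 had 55.7 and 27.4 FPKM in DU145 and 1.34 and 4.81 FPKM in 769-P. HMGA2, a chromatin protein of embryonic and tumour cells, had 14.3 and 4.11 FPKM in DU145 and 53.1 and 104 FPKM in 769-P. In each of these the siRNA that was high in 1 line was low in the other. With 1 library per siRNA and line the difference between the lines could not be tested.

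A few large differences were seen in 1 line. In DU145 these were CLDN11, a tight junction protein with 2.73 and 28.0 FPKM, C2orf82 with 0.946 and 7.69 FPKM, and TMEM158 with 127 and 32.3 FPKM, and the short RNAs VTRNA1-3 (82.1 and 0 FPKM) and RNU6ATAC (0 and 31.8 FPKM). CLDN11 had 0.0770 and 0.116 FPKM in 769-P, too low to show a fold change on this scale. The short RNAs were listed at 0 in the other libraries and their FPKM values rest on very short transcripts. In 769-P they were UCHL1, a deubiquitinase of neurons (0 and 6.06 FPKM), KLF2, a transcription factor of flow-exposed endothelium (19.7 and 2.63 FPKM), CKB, the brain creatine kinase (0.46 and 4.98 FPKM), SNHG9 (2.28 and 12.1 FPKM) and PPL, or periplakin (6.44 and 0.998 FPKM). UCHL1 and CKB were at 573 to 789 FPKM in DU145, where the siRNAs differed by at most 0.14. In the 769-P control they had 3.30 and 4.92 FPKM, so si1 was the library that stood away there. GSTP1, PRDX2 and RHOD, counted as higher with si2 in both lines, were likewise at 0 with si1 in 769-P. With si2 they had 0.770 to 1.53 FPKM there, and 0.436 to 1.93 FPKM in its control. In DU145 they had 76.9 to 189 FPKM. The origin of such low values in 769-P was not tested. VTRNA1-3, TMEM158, UCHL1, KLF2 and SNHG9 passed the limma test (adjusted p from 0.0379 to 0.0476) although the siRNAs were within 1.2-fold of each other in the second line.

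Outside the genes that hold either word, the lines were still alike to some degree. Across the 5060 genes with neither word in the 3′ UTR the differences in DU145 and 769-P correlated with a Pearson r of 0.35, against 0.64 across the 2035 genes with a copy of either. The words were found with these same differences, which by itself can raise r among holders, and holders have longer 3′ UTRs. The 2 values are therefore descriptions and no test. Of the genes with neither word, 68 were higher and 55 lower with si2 at 1.5-fold in both lines, out of 160 and 130 with a model.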

How the data were processed

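RNA-Seq was carried out by the authors on polyadenylated RNA of transfected DU145 and 769-P cells. Per the labels and the study's methods, reads were handled with FastQC, cutadapt and TopHat2 on hg19, and the authors deposited FPKM values. The methods name Cufflinks, but its version and annotation are not given in the sources used here. Labels and methods differ on the library kit, and the methods mention replicates that the labels do not list.

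Rows of a symbol were summed and log2(FPKM + 1) was taken. si2 was compared with si1 with limma 3.58.1 in R 4.3.3 (cell line as block, eBayes with trend, two-sided, Benjamini-Hochberg adjustment over 8007 genes). A count test was not possible. Calls of fold in both lines carry no test. The pairs are the cell lines of the labels. Named genes are SPOP, the 15 highest and 15 lowest by the smaller of the 2 line differences among genes past 1.5-fold in both lines, 5 opposite genes in each orientation, 5 genes per line under 1.2-fold in the other, and list members past 1.5-fold in both lines. The rule also names every gene past the limma threshold, which are given as counts for length, and SREBF1, SREBF2, NQO1, DUSP5 and the genes nearest each limit were chosen after their values were seen. Words and windows came from GENCODE transcripts on GRCh37 (v44lift37), and miRNAs from RefSeq. The scripts (Python 3.11.15, pandas 2.3.3, numpy 2.4.6) were tested on simulated data. The members, the 28 lists and the tests were chosen with earlier results of these data known, and the word search was added after the values were seen. FPKM hides depth, so no counting interval is given. A few single genes that the rule names are not reported here.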

Additional observations from a re-analysis of the deposited data

Results flagged for a closer look

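The siRNA difference was of opposite sign in the lines, past 1.5-fold in each, for 10 named genes, and this contrast was not tested because each siRNA has 1 library per line. The DU145 difference minus the 769-P difference was 2.23 for CD24, 1.83 for PAX8-AS1, 1.63 for THBS1, 1.65 for HKDC1 and 1.82 for RAB11FIP1. It was -2.31 for PLEKHG4, -2.54 for HMGA2, -1.81 for MGC72080, -2.08 for ADAM8 and -1.54 for CALHM2. THBS1, or thrombospondin-1, had 6.72 and 12.8 FPKM in DU145 and 60.7 and 34.7 FPKM in 769-P with si1 and si2, and HKDC1, a hexokinase-like enzyme, had 0.877 and 2.23 FPKM and 87.2 and 47.4 FPKM. ADAM8 and CALHM2 were under 1.5 FPKM in both siRNA libraries of 769-P.

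Olfactory receptor genes, which belong to no comparison here, had a value above 0 for 237 of 366 genes in the si2 library of 769-P. The control of that line had 4 and si1 had 3, while the DU145 control, which enters no test, had 287. Its part in the differences of 769-P was not tested beyond the subtraction described in the next section.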

How the results depend on the processing

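The count of genes past the limma threshold depended on the fit. It was 339 with the cell line as block and 0 without the replicate block (94 genes at an unadjusted p under 0.05, against 1419 with the pairing), 111 at a mean FPKM of at least 1, 83 without a filter, 152 after quantile normalization, 585 with the olfactory receptor mean subtracted, 121 with small RNA symbols kept and 544 with robust eBayes. A fit without the block leaves the differences between the lines in its residual spread. The causes of the changes in the counts were not tested. Leaving out a line leaves limma no residual degree of freedom, so no such fit was made.

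With a pseudocount of 5 the genes past 1.5-fold were 169 in both lines, 8 in opposite directions, 780 in DU145 and 418 in 769-P, and 19 passed 2-fold. With a pseudocount of 0.1, 88 passed 2-fold in both lines and 61 were opposite. At a mean FPKM of at least 1 there were 69 opposite genes, 2057 in DU145 and 1387 in 769-P, at least 10 gave 590 in 769-P, and no filter gave 84, 2705 and 1734. A single line has 1284 or 920 genes past 1.5-fold and 293 or 185 past 2-fold, where both together have 340 and 57. The Pearson correlation between the lines was 0.28 without a filter and 0.29 with small RNA symbols kept.

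The gap between holders of GTGAAAT and other genes, as the mean of the lines, was 0.126, and 0.0443 without a filter. For ATGTGTG it was -0.116, with -0.0874 at a pseudocount of 5 and -0.0216 without a filter. Other alternatives, including the transcript with the longest 3′ UTR (added after the values were seen), moved these gaps by less than the spread between the lines. Of 812 values of 83 named genes under alternatives, 27, from 17 genes, lost the 1.5-fold call in both lines, 0 gained it and 0 changed direction. Of the 30 genes at the top, SGK1 and CREBL2 lost it with a pseudocount of 5.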
